A study of Homo sapiens with 12 samples.

Results

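The comparison described is SDF-1α over DMSO vehicle in C28/I2, a line of human chondrocytes made to grow without limit by immortalisation, so a single established line stands for the cell type. Its members were all genes with a value for SDF1 over DMSO in the authors' deposited table, 18162 of the 19215 genes listed. The SDF1 group was 3 cultures given 50 nM SDF-1α for 48 h, and the DMSO group was 3 cultures given 0.5% of the solvent for 48 h. All grew in medium with fetal bovine serum, penicillin and streptomycin, and total RNA was sequenced. Solvent is named for the DMSO cultures alone, so SDF-1α and a difference in solvent cannot be told apart. For each gene the table lists a p-value, an adjusted p and a log2 fold change, and no value per culture. Levels, sequencing depth per culture and the spread among cultures were therefore not analysed here, and no culture could be checked against its group. Nothing in the labels says whether the 3 cultures of a group were independent, so p-values measure the spread between these samples, which may be technical.

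SDF-1α, also called CXCL12, is a secreted chemokine that binds the receptor CXCR4, which signals through inhibitory G proteins to phosphoinositide 3-kinase, to the MAP kinase cascade and to the proteins that rebuild the actin cytoskeleton. A second receptor, ACKR3, binds the same ligand, recruits arrestins and clears it. In joints, CXCL12 is made by synovial cells and CXCR4 is found on chondrocytes, where the axis is known for the release of matrix-degrading enzymes. The study used this comparison as the baseline against which natural products proposed as CXCR4 antagonists were set.

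Genes of the actin cytoskeleton, muscle-type contractile proteins, sterol synthesis, ribosomes and the respiratory chain were among those higher with SDF-1α. Genes of the basement membrane, fibrillar collagens, interferon response, DNA repair by homologous recombination and pre-mRNA splicing control were among those lower. Values below are log2 fold changes of SDF1 over DMSO from the authors' deposited table, each followed by ± and a standard error implied by its size and p-value. The threshold for calling a gene changed was an adjusted p below 0.05, from the authors' DESeq2 test with Benjamini-Hochberg adjustment over all genes. By this rule 34.7% of genes changed, 17.2% (3122 genes) higher and 17.5% (3179 genes) lower. When the p-values were recomputed from a t reference distribution (4 degrees of freedom, for 6 cultures in 2 groups), 339 genes were higher and 753 lower.

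Rises were smaller than falls. Among higher genes 1856 had a log2 change of 0.25 to 0.5 and 981 one of 0.5 to 1. Among lower genes 993 and 1244 fell in these ranges. Upward changes of 2-fold or more were called for 0.677% of genes tested (123 genes), and downward ones for 4.79% (870 genes). Of these, 61 and 536 were measured precisely, meaning that the implied standard error did not exceed 0.3, as were 11982 genes in all. The median log2 fold change was -0.01 over all genes and 0.04 over the precise ones.

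**Figure D1:**
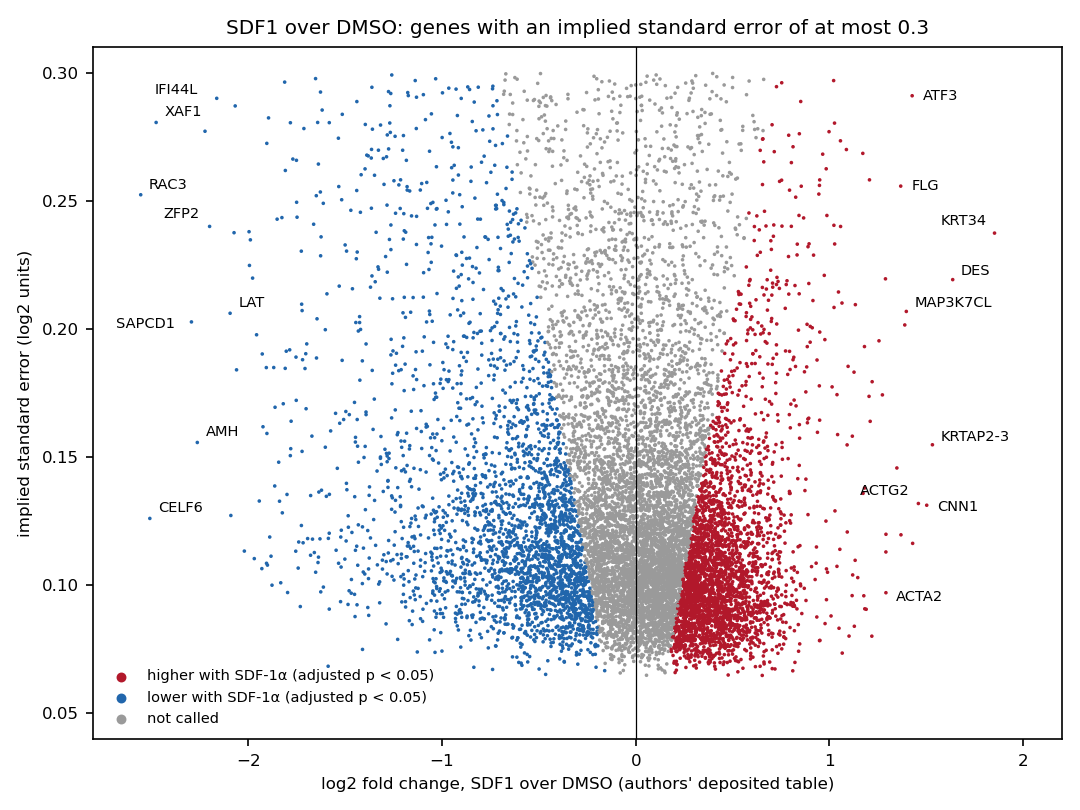
Each point is a gene whose implied standard error does not exceed 0.3, placed by its log2 fold change of SDF1 over DMSO (horizontal axis) and that standard error in log2 units (vertical axis), with red for higher, blue for lower and grey for not called. Points below -1 are more numerous than points above 1, with 536 called genes on the left and 61 on the right.

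Among the 15 largest precise rises in the authors' deposited table, 4 encode contractile or muscle filament proteins. These were DES (1.64 ± 0.22), CNN1 (1.50 ± 0.13), ACTG2 (1.46 ± 0.13) and ACTA2 (1.29 ± 0.10). Skin and hair proteins formed another set, with the hair keratin KRT34 (1.85 ± 0.24), the keratin-associated KRTAP2-3 (1.53 ± 0.15) and the epidermal filaggrin FLG (1.37 ± 0.26). NEDD9, a docking protein of focal adhesions that acts in cell migration, rose by 1.37 ± 0.12. DACT1, which acts on Wnt signalling through Dishevelled, rose by 1.29 ± 0.11, and CTH, the enzyme that makes cysteine from cystathionine, rose by 1.29 ± 0.12. The membrane-type metalloproteinase MMP24 (1.39 ± 0.20), MAP3K7CL, GCSAML (1.35 ± 0.15), the stress transcription factor ATF3 (1.43 ± 0.29) and the chorionic gonadotropin subunit CGB5 (1.43 ± 0.12) completed the 15. ATF3 and FLG were past the threshold with the normal distribution only: with 4 degrees of freedom their adjusted p was 0.0659 and 0.0589.

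NEDD9 lies on chromosome 6 at 11183298 to 11382348 and CTH on chromosome 1 at 70411218 to 70439851 (GRCh38, GENCODE 29). KRTAP2-3 lies on chromosome 17 at 41059240 to 41060114, and CGB5 on chromosome 19 at 49043884 to 49045311. Both of the last have near-identical neighbours, and ACTA2 and ACTG2 encode nearly the same protein. The submitters' notes name the program RSEM but do not say how reads of such copies, or of overlapping genes, were shared out, so their values are less certain.

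The 15 largest precise falls in the authors' deposited table went deeper, the first of them being -2.55. The Rac GTPase RAC3 (-2.55 ± 0.25) and the splicing regulator CELF6 (-2.51 ± 0.13) led, followed by the interferon-inducible XAF1 (-2.48 ± 0.28), SAPCD1 (-2.29 ± 0.20) and the hormone gene AMH (-2.26 ± 0.16). IFI44L, another interferon-inducible gene, fell by 2.16 ± 0.29. LAT, an adaptor best known from T cell receptor signalling, fell by 2.09 ± 0.21. KCP, a secreted regulator of BMP signalling, fell by 2.07 ± 0.29, and WDR90, a protein linked to centrioles and cilia, by 2.02 ± 0.11. The others were LOC107987388 (-2.22 ± 0.28), ZFP2, MROH6 (-2.09 ± 0.13), SAP25 (-2.07 ± 0.24), YJEFN3 (-2.06 ± 0.18) and the zinc finger gene ZGLP1. All 15 stayed past the threshold with 4 degrees of freedom. WDR90 lies on chromosome 16 at 649311 to 667833, RAC3 on chromosome 17 at 82031624 to 82034204 and CELF6 on chromosome 15 at 72284727 to 72320129.

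**Figure D2:**
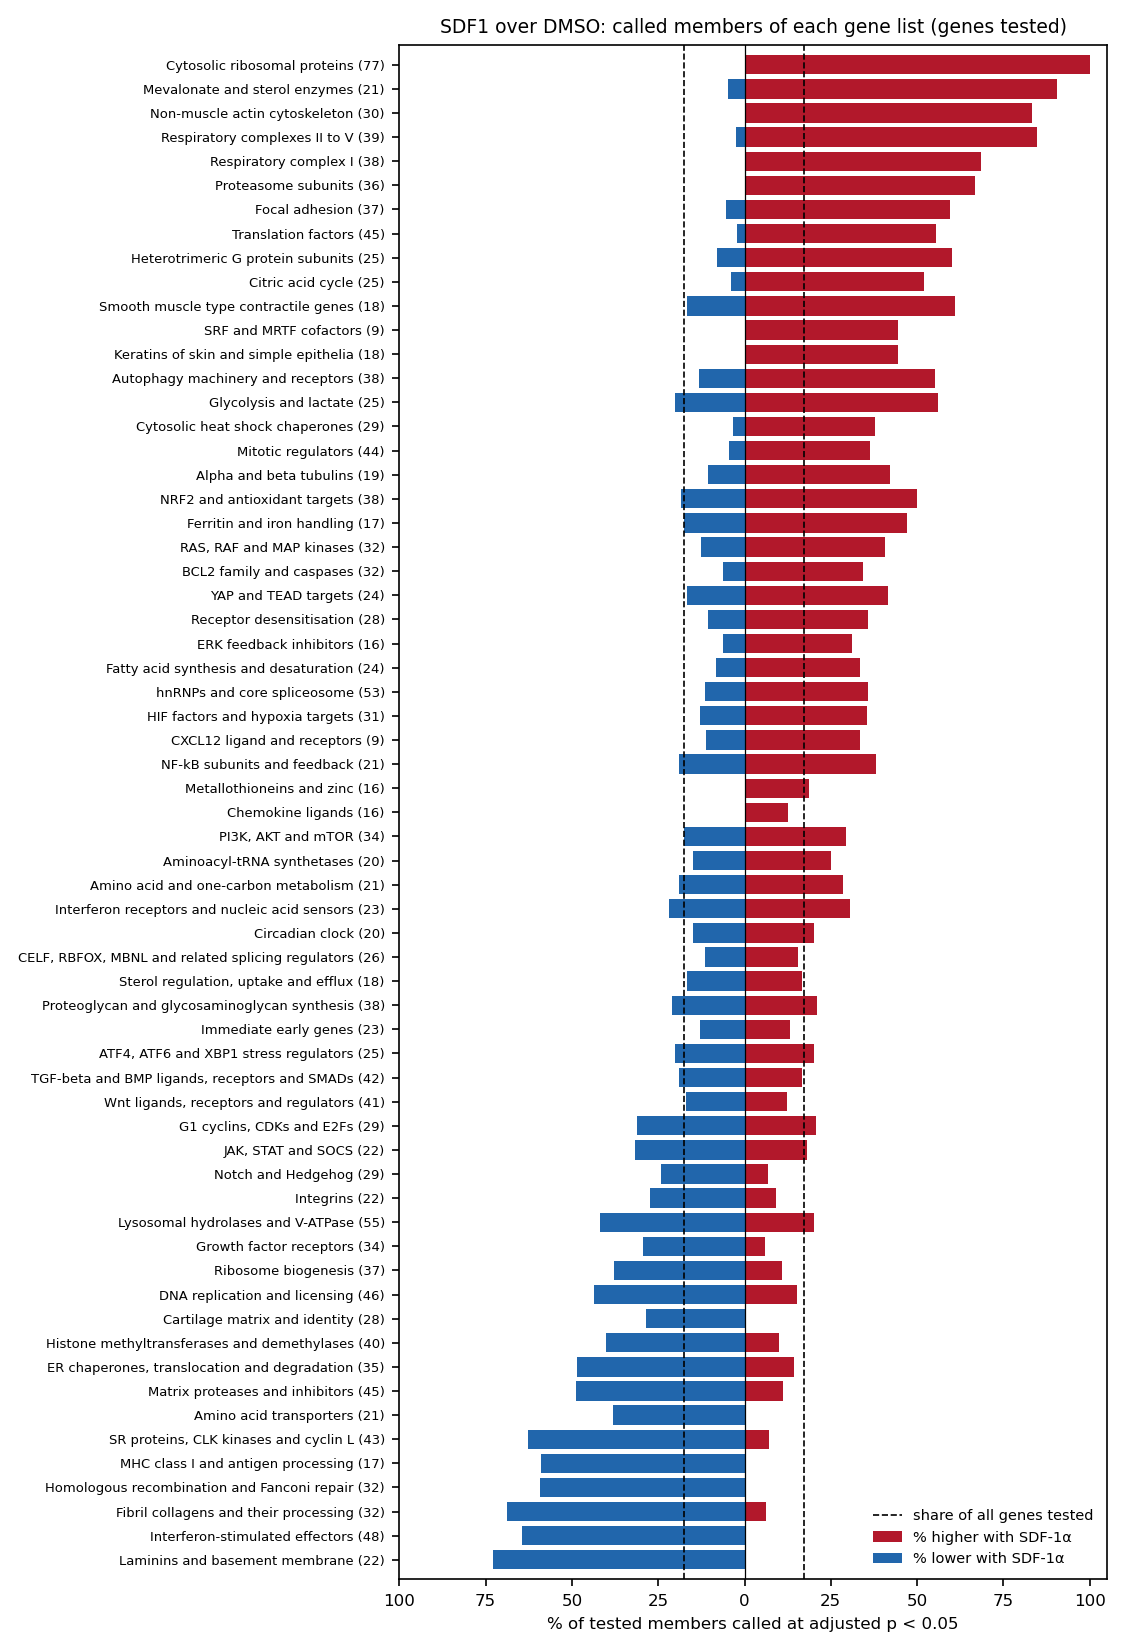
For each of 63 gene lists, the red bar to the right gives the percentage of tested members higher with SDF-1α and the blue bar to the left the percentage lower, with the number tested in brackets and dashed lines at the shares of all genes, 17.2% and 17.5%. All 77 ribosomal protein genes were higher, and 16 of 22 basement membrane genes were lower.

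Of 9 genes of the chemokine's own axis, 3 rose and 1 fell. In the authors' deposited table CXCR4 stood at 0.00 ± 0.30 (95% interval -0.59 to 0.59), while ACKR3 rose by 0.43 ± 0.11. Ligands other than CXCL12 that act through these receptors, MIF (0.46 ± 0.09) and HMGB1 (0.43 ± 0.09, which acts in a complex with CXCL12), rose too, and the co-receptor CD44 fell by 0.16 ± 0.07. CXCL12 (-1.97 ± 1.05), the MIF receptor CD74 (-0.53 ± 0.33), the CXCR4-binding chemokine CXCL14 (-0.14 ± 0.17) and DPP4, which cleaves CXCL12 (-0.05 ± 0.41), did not pass. Of 16 chemokine ligands, CXCL8 (0.63 ± 0.12) and the monocyte attractant CCL2 (0.77 ± 0.13) rose and none fell. That share of rises, 12.5%, was below the 17.2% of all genes, and no ligand passed with 4 degrees of freedom. Most of the other ligands were too imprecise to show a change, such as CXCL10 (0.82 ± 0.51) and CCL20 (0.59 ± 1.04).

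Genes of heterotrimeric G protein subunits were mostly higher, 15 of 25 against 17.2% of all genes, with 2 lower. Of the 5 tested alpha subunits of the inhibitory group 4 rose, among them GNAI1 (0.74 ± 0.11), GNAI3 (0.56 ± 0.10) and GNAI2 (0.46 ± 0.09) in the authors' deposited table. GNA12, an alpha subunit of another group, rose by 0.62 ± 0.08. Beta and gamma subunits followed, with GNB1 at 0.52 ± 0.07, GNG10 at 0.77 ± 0.10 and GNG2 at 0.71 ± 0.15, whereas GNB3 fell by 1.86 ± 0.17. Of 28 genes that end receptor signalling, 10 rose and 3 fell. ARRB1, an arrestin that uncouples and internalises receptors, rose by 0.54 ± 0.16, and RGS10, which speeds the switching-off of G proteins, by 0.63 ± 0.13. GRK2, the kinase that phosphorylates active receptors, fell by 0.49 ± 0.10. ITCH, the ubiquitin ligase that sends CXCR4 to lysosomes, rose by 0.42 ± 0.12.

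Of the downstream kinase pathways, 13 of 32 RAS and MAP kinase genes rose and 4 fell in the authors' deposited table. The ERK kinase gene MAPK3 (0.46 ± 0.12) and the ERK activator MAP2K1 (0.39 ± 0.09) rose together with the small GTPases RRAS2 (0.71 ± 0.10) and RRAS (0.65 ± 0.10). The p38 family split: MAPK13 fell by 1.65 ± 0.11 and MAPK12 by 0.86 ± 0.11, and MAPK14, the main p38 kinase, stood at 0.08 ± 0.11. Of 34 genes of the phosphoinositide 3-kinase, AKT and mTOR pathway, 10 rose and 6 fell, a share of falls close to the 17.5% of all genes. Rises included the negative regulator PIK3IP1 (1.04 ± 0.17) and the regulatory subunit PIK3R3 (0.79 ± 0.13). TSC2 (-0.64 ± 0.10) and TSC1 (-0.48 ± 0.10), the brake on mTORC1, fell, as did RICTOR (-0.45 ± 0.14) and RPTOR (-0.42 ± 0.10), which define the mTOR complexes.

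Immediate early genes, which respond within minutes and were read here after 48 h, were mixed, with 3 of 23 higher and 3 lower. Both shares were below those of all genes. EGR1 rose by 1.17 ± 0.14 and FOSB by 1.43 ± 0.48, whereas FOS (-0.45 ± 0.18), JUN (-0.22 ± 0.09) and IER2 (-0.72 ± 0.14) fell and MYC stood at -0.01 ± 0.08. Of 16 feedback inhibitors of ERK, 5 rose and 1 fell, led by the ERK phosphatase DUSP5 (0.70 ± 0.12) and by DUSP16 (0.62 ± 0.14).

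Several genes that build and remodel actin filaments were higher. In the authors' deposited table CDC42, a small GTPase that starts filament assembly, rose by 0.57 ± 0.08 and RAC1 by 0.42 ± 0.07. The Arp2/3 complex, which starts branched actin filaments, had 8 of 9 genes higher, ARPC5 (0.73 ± 0.09), ARPC2 (0.71 ± 0.08) and ACTR3 (0.64 ± 0.09) foremost. WASF2, which switches that complex on, rose by 0.70 ± 0.07. The filament-severing proteins DSTN (0.85 ± 0.10), CFL1 (0.58 ± 0.08) and CFL2 (0.58 ± 0.10) rose as well. The scaffold gene IQGAP3 (-1.04 ± 0.07) and the kinase PKN3 (-0.75 ± 0.12) fell.

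Actin and its partners rose together. Of 30 non-muscle cytoskeleton genes, 25 were higher and none lower, with a median of 0.46 in the authors' deposited table. The thymosins, which hold actin monomers, were at 0.88 ± 0.09 (TMSB10) and 0.55 ± 0.09 (TMSB4X), the adenylyl cyclase-associated CAP1 at 0.77 ± 0.08, the myosin light chain MYL6 at 0.78 ± 0.09 and the tropomyosin TPM4 at 0.73 ± 0.07. ACTB, a gene often used as a constant control, rose by 0.60 ± 0.10. The filamins FLNA (0.02 ± 0.08) and FLNC (-0.12 ± 0.08) did not pass.

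Contractile genes of smooth muscle type made larger moves. Of 18 tested, 11 rose and 3 fell, and 6 of the rises were at least 2-fold. Besides the genes named above, these were TAGLN (1.18 ± 0.09) and LMOD1 (1.13 ± 0.21), an actin filament nucleator of smooth muscle. The light chain MYL9 (0.66 ± 0.09), its kinase MYLK (0.57 ± 0.08), caldesmon CALD1 (0.62 ± 0.10) and TPM1 (0.52 ± 0.08) rose less. TPM2, another tropomyosin of smooth muscle, fell by 1.83 ± 0.10, SMTN by 0.28 ± 0.09 and the skeletal actin ACTA1 was also lower (-2.52 ± 0.90). MYH11, the smooth muscle myosin heavy chain, was at 1.69 ± 1.16 and not called, and MYOCD, the cofactor that defines the lineage, had no value. Among 9 genes of SRF, its cofactors and related LIM proteins, SRF (0.13 ± 0.09), MRTFA (0.11 ± 0.10) and MRTFB (0.15 ± 0.13) did not pass, while FHL1 (0.98 ± 0.09), FHL2 (0.46 ± 0.09), FHL3 (0.46 ± 0.12) and the ternary complex factor ELK3 (0.63 ± 0.12) rose. ELK1 (0.13 ± 0.11) and ELK4 (-0.11 ± 0.13) did not pass. With 4 degrees of freedom 8 contractile genes were higher and 1 lower, and 9 non-muscle genes were higher.

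SRF binds the CArG box, a motif of fixed ends and an A/T-rich middle that is read on both strands. It was searched by that name in windows from 250 bases before to 50 after the gene start (RefSeq, GRCh38.p14), available for 14070 of the 18162 genes, 1 start for each gene. A CArG box was held by 4 of 14 such windows of the smooth muscle list, 4 of 27 of the non-muscle actin list and 1.29% of all RefSeq windows. In the first list these were ACTG2 and MYLK, which rose, ACTA1, which fell, and ACTC1, which was not called (0.58 ± 2.66). In the second they were TPM4, ACTG1 (0.52 ± 0.08) and CNN2 (0.44 ± 0.10), which rose, and FLNA, which did not pass. Among all genes 1.53% of windows of higher genes held one, 0.769% of lower genes and 1.19% of genes not called. The 250 bases before the start of the 2 risen contractile genes are shown with the boxes in capitals, ACTG2 at chr2:73892758-73893007 on the plus strand and MYLK at chr3:123620549-123620798 on the minus strand, each written 5′ to 3′ along its gene.
ACTG2: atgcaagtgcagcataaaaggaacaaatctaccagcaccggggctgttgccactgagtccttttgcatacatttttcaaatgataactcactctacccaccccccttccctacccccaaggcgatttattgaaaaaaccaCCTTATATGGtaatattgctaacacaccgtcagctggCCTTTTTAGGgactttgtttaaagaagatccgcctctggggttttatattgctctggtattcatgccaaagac
MYLK: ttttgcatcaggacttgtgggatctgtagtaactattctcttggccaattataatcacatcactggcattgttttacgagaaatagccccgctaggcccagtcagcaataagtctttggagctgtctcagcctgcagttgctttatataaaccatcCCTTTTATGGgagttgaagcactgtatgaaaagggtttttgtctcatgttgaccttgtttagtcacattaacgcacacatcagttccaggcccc
The ACTG2 window held 2 boxes, of which the first spans positions -110 to -101 from the start, and the MYLK window held 1, from -94 to -85. A match is a description of these letters and was not tested as a binding site.

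Focal adhesion genes, which tie actin to the matrix, were higher in 22 of 37 cases and lower in 2 in the authors' deposited table. PDLIM1 (1.13 ± 0.08), the caveolae genes CAV1 (0.73 ± 0.08), CAV2 (0.70 ± 0.09) and CAVIN1 (0.70 ± 0.08), and the parvin PARVA (0.58 ± 0.08), which links integrin complexes to actin, rose. The tensin TNS2 (-0.86 ± 0.10) and EVL (-0.54 ± 0.10) fell. The receptors at these sites did not follow. Of 22 integrin genes 6 fell and 2 rose, with ITGB5 at -0.57 ± 0.08, the fibronectin receptor chain ITGA5 at -0.51 ± 0.09 and ITGA10, a collagen receptor chain of chondrocytes, at -0.73 ± 0.12. The shared beta chain ITGB1 rose by 0.24 ± 0.09. In a list of keratins and other genes 8 of 18 rose and none fell. KRT15 was at 0.77 ± 0.21, KRT18, a keratin of simple epithelia, at 0.34 ± 0.10 and the mesenchymal filament VIM, which is not a keratin, at 0.41 ± 0.07. That list was chosen by hand, and its 8 rises are not all of keratins. Over all 50 tested genes named KRT and a number, 5 rose and 2 fell, a smaller share of rises than the 17.2% of all genes. The 2 that fell were KRT79 (-1.51 ± 0.28) and KRT75 (-0.72 ± 0.09).

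Genes of the basement membrane, the sheet of laminin and type IV collagen on which cells rest, had the largest share of falls of the 67 lists. Of 22 genes in the authors' deposited table, 16 fell, none rose and the median was -0.76. Of the 11 laminin chains 8 fell, with LAMA4 (-1.24 ± 0.15), LAMC3 (-1.24 ± 0.19), LAMA3 (-1.14 ± 0.15), LAMB2 (-1.03 ± 0.09) and LAMB3 (-1.01 ± 0.09) each lower by 2-fold or more. LAMC1, the gamma chain that most laminins share, stood at 0.05 ± 0.08. The proteoglycan agrin, AGRN, fell by 1.31 ± 0.11 and COL18A1, whose product carries endostatin, by 1.24 ± 0.12. Both chains of the common type IV collagen fell, COL4A1 by 0.56 ± 0.09 and COL4A2 by 0.83 ± 0.09. With transcript length and GC trends removed, 15 fell and the median was -0.51. With 4 degrees of freedom, 11 fell.

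Fibril-forming and fibril-associated collagens with their processing enzymes fell in 22 of 32 cases and rose in 2, with a median of -0.41. With length and GC trends removed, 18 fell, 4 rose and the median was -0.26. With 4 degrees of freedom, 10 fell. COL27A1 (-1.90 ± 0.11), COL7A1 (-1.73 ± 0.09), the fibril-associated COL16A1 (-1.45 ± 0.09) and COL6A1 (-1.26 ± 0.10) fell most in the authors' deposited table. Enzymes that act on procollagen moved with them: PCOLCE, which enhances the trimming of procollagen ends, fell by 1.33 ± 0.22, the trimming protease BMP1 by 0.62 ± 0.10, the lysyl hydroxylase PLOD3 by 0.94 ± 0.10 and the crosslinking enzyme LOXL3 by 0.99 ± 0.09. LOX (0.44 ± 0.08), the founding crosslinking enzyme, and the prolyl hydroxylase subunit P4HA1 (0.38 ± 0.10), a known hypoxia target, were the 2 that rose. Among 28 cartilage genes 8 fell and none rose. They included COL11A2 (-1.70 ± 0.19), CHAD, a cartilage matrix leucine-rich protein (-2.52 ± 0.60), SNORC (-1.18 ± 0.25), CILP (-0.87 ± 0.23) and ACAN (-0.88 ± 0.15), while SOX9 stood at -0.04 ± 0.10. Of 38 genes of proteoglycan cores and sugar-chain enzymes 8 rose and 8 fell, 21.1% each beside the 17.2% and 17.5% of all genes. The small proteoglycans DCN (1.63 ± 0.67) and LUM (1.49 ± 0.47) and the heparan sulphate polymerase EXT1 (0.48 ± 0.07) rose. GPC1 (-0.46 ± 0.09) and the xylosyltransferase XYLT2 (-0.49 ± 0.12) fell.

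Matrix proteases and inhibitors were lower in 22 of 45 cases and higher in 5. The collagenase MMP1 (-1.20 ± 0.12), the stromelysin MMP3 (-0.59 ± 0.07), the gelatinases MMP9 (-1.26 ± 0.31) and MMP2 (-0.35 ± 0.09), ADAM8 (-1.63 ± 0.23) and ADAMTS7 (-0.93 ± 0.12) fell in the authors' deposited table. Inhibitors split, since TIMP1 (-0.58 ± 0.10) and SERPINE2 (-0.80 ± 0.08) fell while TIMP3 (0.38 ± 0.07) and TIMP2 (0.18 ± 0.08) rose. Aggrecan-cutting ADAMTS4 (-1.07 ± 1.63) and ADAMTS5 (-1.27 ± 4.08) were too imprecise to show a change.

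**Figure D3:**
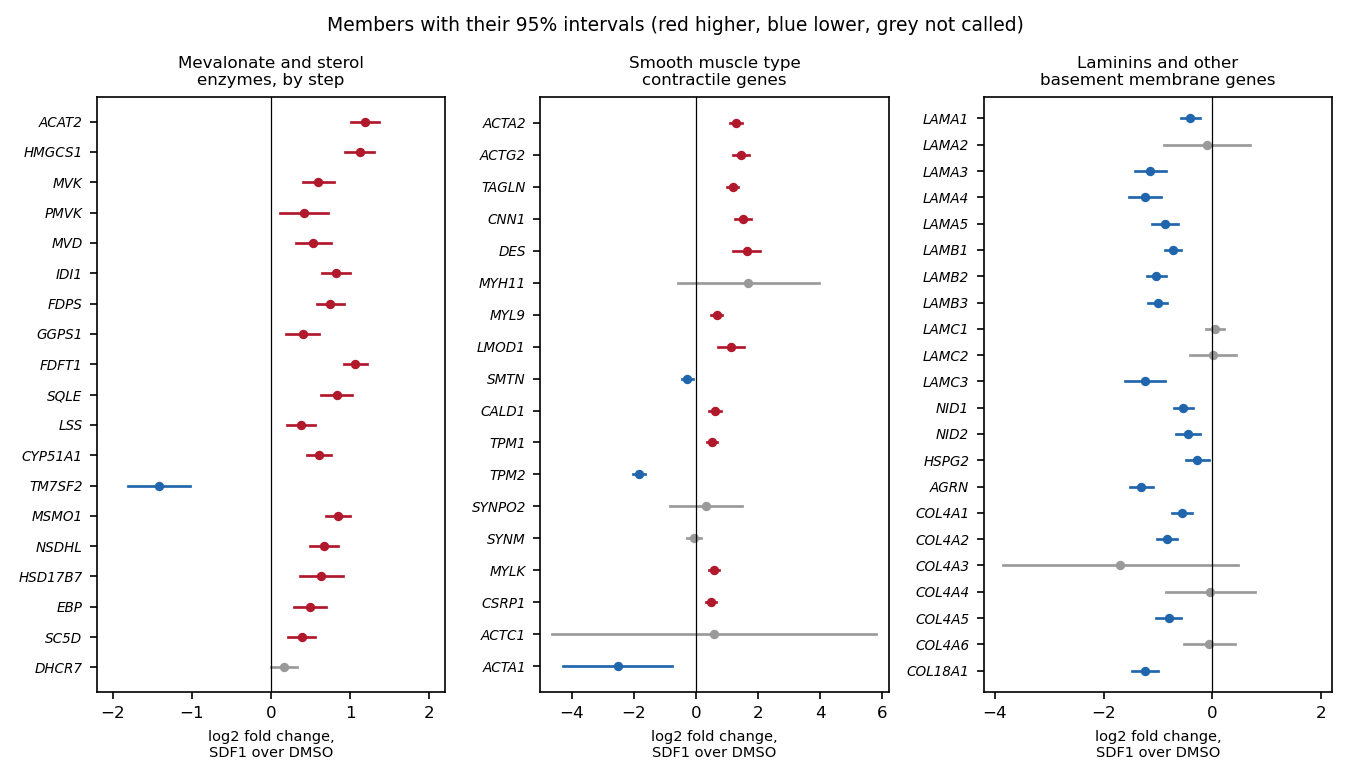
Log2 fold changes of SDF1 over DMSO (horizontal axes, points) with 95% intervals from the implied standard error (lines) for 19 of the 21 enzymes of sterol synthesis in pathway order, 18 contractile genes and 22 basement membrane genes, in red where higher, blue where lower and grey where not called. Sterol enzymes lie right of 0 except TM7SF2, and no basement membrane gene is called higher.

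Growth factor and developmental pathways differed from list to list in the authors' deposited table. Of 42 TGF-beta and BMP genes 7 rose and 8 fell, shares near those of all genes. The receptors TGFBR2 (0.35 ± 0.12) and BMPR2 (0.38 ± 0.10) and the mediator SMAD1 (0.66 ± 0.15) rose, and the latent binding proteins LTBP3 (-1.26 ± 0.18) and LTBP4 (-0.87 ± 0.11) and the inhibitor SMAD6 (-0.71 ± 0.09) fell. For YAP and TEAD, 10 of 24 rose and 4 fell: CCN2 (0.59 ± 0.10), IGFBP3 (0.62 ± 0.08) and MYOF (0.51 ± 0.08) were higher, F3 (-0.54 ± 0.10) and ARHGEF17 (-0.48 ± 0.10) lower, and CCN1 (0.07 ± 0.07) and ANKRD1 (0.05 ± 0.10) did not pass. Growth factor receptors fell in 10 of 34 cases and rose in 2, with EPHB4 (-0.46 ± 0.08), EPHA2 (-0.38 ± 0.08) and ERBB2 (-0.38 ± 0.09) among the falls and the VEGF receptor FLT1 (0.89 ± 0.32) among the rises. Notch and Hedgehog genes fell in 7 of 29 cases, including NOTCH1 (-0.81 ± 0.11) and its ligand JAG2 (-1.18 ± 0.23), and rose in 2. Of 41 Wnt genes 5 rose, such as CTNNB1 (0.37 ± 0.08), and 7 fell, such as SFRP1, a secreted Wnt antagonist (-1.05 ± 0.10), and the receptor FZD8 (-1.28 ± 0.14). The Wnt shares, 12.2% higher and 17.1% lower, did not exceed those of all genes, and with length and GC trends removed 7 rose and 5 fell.

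Interferon-stimulated effectors, proteins that block virus entry, translation and release, were lower in most cases. Of 48 tested, 31 fell and none rose, with a median of -0.51 in the authors' deposited table, and 16 fell with 4 degrees of freedom. Among the falls were the tetherin gene BST2 (-1.60 ± 0.13) and the entry inhibitor IFITM1 (-1.17 ± 0.12), the RNA-binding IFIT1 (-1.03 ± 0.13), OAS1 (-1.37 ± 0.12), the ubiquitin-like ISG15 (-0.84 ± 0.12) with its E1 enzyme UBA7 (-0.89 ± 0.13), and the ADP-ribosyltransferases PARP10 (-1.58 ± 0.14) and PARP14 (-1.01 ± 0.10). IFI6 fell by 1.04 ± 0.09. MX1 (-0.16 ± 0.23), RSAD2 (-0.49 ± 0.34), ISG20 (-0.27 ± 0.29), IFIT2 (0.36 ± 0.19), GBP1 (0.06 ± 0.09) and GBP2 (0.25 ± 0.12) did not pass. Of 23 interferon receptor and nucleic acid sensor genes 7 rose and 5 fell. The receptors were among the rises: IFNAR1 (0.41 ± 0.09), IFNAR2 (0.30 ± 0.12) and IFNGR2 (0.54 ± 0.11) rose. The RNA sensors DDX58 (-0.49 ± 0.13), IFIH1 (-0.56 ± 0.16) and DHX58 (-0.87 ± 0.16) fell, as did STAT2 (-1.11 ± 0.10) and IRF9 (-0.84 ± 0.11), parts of the factor ISGF3. In the wider JAK, STAT and SOCS list 7 of 22 fell and 4 rose, JAK1 (0.50 ± 0.07) and STAT3 (0.31 ± 0.08) being higher.

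Genes of MHC class I presentation fell in 10 of 17 cases and none rose. Of the 6 HLA class I heavy chains 5 were lower, HLA-F at -0.77 ± 0.11 among them in the authors' deposited table, with the caution that these genes are alike in sequence. The peptide transporters TAP2 (-0.91 ± 0.09) and TAP1 (-0.67 ± 0.11) and the class I transactivator NLRC5 (-0.96 ± 0.11) fell. B2M, the light chain, stood at -0.08 ± 0.07, and the immunoproteasome subunits PSMB8 (-0.02 ± 0.11) and PSMB9 (-0.03 ± 0.15) did not pass. The NF-kB list had 8 of 21 higher and 4 lower: NFKB1 (0.69 ± 0.11), the feedback genes TNIP1 (0.74 ± 0.09), NFKBIA (0.48 ± 0.10) and BIRC3 (1.02 ± 0.24) rose, and REL (-0.67 ± 0.09) and BCL3 (-0.59 ± 0.11) fell.

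ISGF3 binds the interferon-stimulated response element, searched here as GAAANNGAA on both strands. It was held by 24 of 35 windows of the interferon effectors, 7 of 14 of the MHC class I genes and 8.29% of all RefSeq windows. Among effectors it was in 14 of the 22 windows of genes that fell. That share, 63.6%, was no larger than the 68.6% of all 35. Over all genes tested the share was 6.32% for lower and 6.18% for higher genes. The 250 bases before the start are shown for the fallen effectors with an element and the smallest p, with the elements in capitals, BST2 at chr19:17405631-17405880 and IFI6 at chr1:27672193-27672442, both on the minus strand and written 5′ to 3′ along the gene.
BST2: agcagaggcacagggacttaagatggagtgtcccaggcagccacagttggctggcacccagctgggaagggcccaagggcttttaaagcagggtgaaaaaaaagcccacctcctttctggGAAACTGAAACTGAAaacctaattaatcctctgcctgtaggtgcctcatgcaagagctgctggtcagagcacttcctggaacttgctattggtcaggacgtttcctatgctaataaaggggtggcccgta
IFI6: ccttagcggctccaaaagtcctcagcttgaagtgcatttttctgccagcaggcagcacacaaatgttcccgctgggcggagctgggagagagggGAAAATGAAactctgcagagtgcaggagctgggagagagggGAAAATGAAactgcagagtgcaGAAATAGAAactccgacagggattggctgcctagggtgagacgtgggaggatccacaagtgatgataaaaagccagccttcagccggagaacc
BST2 held 2 overlapping elements from -130 to -116, and IFI6 held 3, the first from -156 to -148 and the last ending at -85.

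Sterol synthesis was higher along nearly its whole length. Of 21 enzymes in the authors' deposited table, 19 rose and 1 fell, with a median of 0.60 (9 higher and 1 lower with 4 degrees of freedom). From acetyl-CoA, ACAT2 rose by 1.19 ± 0.09 and HMGCS1 by 1.12 ± 0.10. The mevalonate steps MVK (0.60 ± 0.10), PMVK (0.42 ± 0.15) and MVD (0.53 ± 0.11) and the isoprenoid steps IDI1 (0.82 ± 0.09), FDPS (0.75 ± 0.09) and GGPS1 (0.40 ± 0.11) followed. FDFT1, which commits the chain to sterols, rose by 1.07 ± 0.07, SQLE by 0.83 ± 0.10, LSS by 0.38 ± 0.09 and CYP51A1 by 0.60 ± 0.08. The next step, reduction of the sterol double bond by TM7SF2, was the exception at -1.42 ± 0.20. The later enzymes MSMO1 (0.85 ± 0.08), NSDHL (0.67 ± 0.09), HSD17B7 (0.64 ± 0.14), EBP (0.49 ± 0.10) and SC5D (0.39 ± 0.09) rose again, and DHCR7 (0.16 ± 0.08) did not pass.

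Their regulators did not move as a block. Of 18 genes of sterol regulation, uptake and efflux, 3 rose and 3 fell. These shares of 16.7% each were near the 17.2% and 17.5% of all genes. INSIG1, which holds the pathway's sensor in the ER, rose by 1.10 ± 0.08 and SREBF2, the transcription factor of sterol enzymes, by 0.29 ± 0.08, while its escort SCAP (-0.45 ± 0.09), SREBF1 (-0.45 ± 0.10) and the lysosomal cholesterol exporter NPC1 (-0.59 ± 0.08) fell. A core sterol regulatory element, TCACCCCAC on either strand, was held by the SREBF2 window and by 0 of 16 windows of sterol enzymes, against 0.425% of all windows, and a CCAAT box by 12 of the 16, against 35.7%. Of 24 fatty acid genes 8 rose and 2 fell, with SCD (0.81 ± 0.07), ACSL3 (0.45 ± 0.08) and ME1 (0.57 ± 0.11) higher and FASN, the synthase itself, at -0.13 ± 0.08.

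Glycolysis divided between its upper and lower steps. Of 25 genes in the authors' deposited table, 14 rose and 5 fell. At the entry, the glucose transporters SLC2A1 stood at 0.06 ± 0.08 and SLC2A3 fell (-0.51 ± 0.10), HK1 rose by 0.24 ± 0.08, and HK2 (-0.04 ± 0.13), GPI (0.00 ± 0.09) and PFKP (-0.03 ± 0.08) did not pass. Phosphofructokinase genes differed, with PFKL at 0.26 ± 0.11 and PFKM at -0.44 ± 0.09, and PFKFB4, which makes an activator of that enzyme, fell by 0.62 ± 0.11 while PFKFB3 stood at 0.06 ± 0.08. From aldolase on, ALDOA (0.56 ± 0.09), ALDOC (1.05 ± 0.11), TPI1 (0.49 ± 0.08), GAPDH (0.49 ± 0.08), PGK1 (0.82 ± 0.07), PGAM1 (0.65 ± 0.06), ENO1 (0.39 ± 0.07), PKM (0.30 ± 0.09), LDHA (0.72 ± 0.07) and LDHB (0.29 ± 0.08) all rose. The neuronal enolase ENO2 fell by 0.64 ± 0.08. PDK1 (0.48 ± 0.12) and PDK3 (0.38 ± 0.11), kinases that inhibit pyruvate dehydrogenase, rose. The lactate exporters SLC16A3 (-0.31 ± 0.08) and SLC16A1 (-0.05 ± 0.10) did not rise.

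Hypoxia targets rose in 11 of 31 cases and fell in 4. HIF1A itself rose by 0.54 ± 0.09, NDRG1 by 1.22 ± 0.08, BNIP3L by 1.01 ± 0.09 and BNIP3 by 0.84 ± 0.08 in the authors' deposited table. VEGFA, the angiogenic factor and a standard hypoxia target, fell by 1.01 ± 0.10, and STC2 by 0.59 ± 0.07. CA12 (-0.07 ± 0.08), ADM (-0.11 ± 0.15) and BHLHE40 (0.10 ± 0.09) did not pass.

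Genes of chaperones, translocation and degradation in the endoplasmic reticulum (ER) fell in 17 of 35 cases and rose in 5. HSPA5, which encodes BiP, fell by 1.13 ± 0.07 in the authors' deposited table, HYOU1 by 0.95 ± 0.10, CRELD2 by 0.88 ± 0.10, HSP90B1 by 0.74 ± 0.07 and CALR by 0.72 ± 0.08. The rises were of the cochaperone DNAJC3 (0.43 ± 0.10), of HERPUD1 (0.31 ± 0.10) and EDEM2 (0.34 ± 0.10), which act in degradation, and of the translocon subunits SEC61B (0.30 ± 0.10) and SEC61G (0.78 ± 0.10). Of 25 upstream regulators 5 rose and 5 fell, 20% each and near the 17.2% and 17.5% of all genes. ATF6 rose by 0.35 ± 0.08, XBP1 (0.10 ± 0.09) and ATF4 (0.06 ± 0.08) did not pass, and DDIT3, which encodes CHOP, fell by 0.90 ± 0.14. Cytosolic heat shock chaperones were higher in 11 of 29 cases and lower in 1, with HSPB1 at 0.74 ± 0.11, HSPA4 at 0.38 ± 0.07 and HSPA1B at -0.40 ± 0.10.

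The ER stress response element, a CCAAT box and a CCACG block 9 bases apart on either strand, was held by 5 of 32 windows of the ER list and 0.0806% of all windows. The 5 were HSPA5, HSP90B1, CALR, CRELD2 and CANX (-0.39 ± 0.08), which all fell, as did 16 of the 32 genes with a window. Over all genes tested, the element was in 6 windows of lower genes (0.243%), 1 of higher genes (0.0384%) and 12 of genes not called (0.133%). CCAAT, which is also part of that element, was in 24 of the 32, with 35.7% of all windows for reference. Shown with the elements in capitals are the 250 bases before the start of the fallen genes with an element and the smallest p, HSPA5 at chr9:125241344-125241593 on the minus strand and HSP90B1 at chr12:103930160-103930409 on the plus strand, each 5′ to 3′ along its gene.
HSPA5: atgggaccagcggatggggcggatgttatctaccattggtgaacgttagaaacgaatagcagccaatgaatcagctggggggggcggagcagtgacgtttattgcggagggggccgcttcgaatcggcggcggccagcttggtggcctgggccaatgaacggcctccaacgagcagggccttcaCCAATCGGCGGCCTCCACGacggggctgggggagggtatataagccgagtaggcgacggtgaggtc
HSP90B1: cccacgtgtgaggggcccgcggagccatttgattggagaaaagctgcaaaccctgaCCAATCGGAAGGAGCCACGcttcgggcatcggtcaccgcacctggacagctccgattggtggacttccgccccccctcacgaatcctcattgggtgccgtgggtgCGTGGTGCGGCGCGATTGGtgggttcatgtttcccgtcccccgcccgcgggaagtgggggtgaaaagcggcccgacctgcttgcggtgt
HSPA5 held 1 element, from -66 to -48, and HSP90B1 held 2, the first from -194 to -176 and the second, in the other orientation, ending at -71.

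Amino acid transporters fell in 8 of 21 cases and none rose, with the glutamate carrier SLC1A3 (-1.30 ± 0.11), SLC3A2 (-1.06 ± 0.09) and SLC36A1 (-0.95 ± 0.10) lowest among precise members of the authors' deposited table. Of 21 enzymes of amino acid and one-carbon metabolism 6 rose, such as GLUL (0.48 ± 0.08), and 4 fell, such as PHGDH (-0.34 ± 0.10) and CBS (-0.45 ± 0.10). CBS feeds cystathionine to CTH, the largest rise of that list, so successive steps of cysteine synthesis moved in opposite directions. Antioxidant genes of the NRF2 list rose in 19 of 38 cases and fell in 7. All 6 peroxiredoxins rose, led by PRDX5 (0.65 ± 0.09) and PRDX1 (0.54 ± 0.08), as did GPX4, which detoxifies lipid peroxides (0.65 ± 0.10), and SOD1 (0.53 ± 0.09). The classical inducible targets did not move together: NQO1 rose by 0.38 ± 0.07, HMOX1 fell by 0.31 ± 0.10, SLC7A11 fell by 0.29 ± 0.11, and GCLC (-0.11 ± 0.13) and GCLM (0.01 ± 0.10) did not pass. Iron genes rose in 8 of 17 cases and fell in 3, with FTL at 0.81 ± 0.10, FTH1 at 0.62 ± 0.08, the iron-sensing aconitase ACO1 at 0.74 ± 0.08 and the ferritin-degrading receptor NCOA4 at 0.49 ± 0.08. Of 16 metallothionein and zinc genes MT1X (0.64 ± 0.09), MT2A (0.34 ± 0.10) and the zinc importer SLC39A14 (0.28 ± 0.08) rose and none fell. Their share of rises, 18.8%, was near the 17.2% of all genes.

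Cell cycle genes differed by phase. Of 46 replication genes 20 fell and 7 rose, with the leading-strand polymerase POLE (-1.04 ± 0.08), POLD1 (-0.97 ± 0.10) and the licensing factor CDT1 (-0.71 ± 0.10) lowest in the authors' deposited table. Of the MCM2 to MCM7 helicase 4 subunits fell, with MCM7 at -0.46 ± 0.08 and MCM3 at -0.44 ± 0.08, and MCM6 rose by 0.30 ± 0.09. PCNA stood at 0.09 ± 0.08. Genes of homologous recombination and of the Fanconi pathway, which repairs crosslinks between DNA strands, fell in 19 of 32 cases and none rose, with a median of -0.45 and 7 falls with 4 degrees of freedom. They included FANCA (-1.32 ± 0.09), the recombination gene XRCC2 (-1.16 ± 0.13), the helicase BRIP1 (-1.03 ± 0.10), FANCD2 (-0.84 ± 0.10) and RAD54L (-0.82 ± 0.09), while BRCA1 (-0.07 ± 0.12) did not pass. Mitotic regulators rose in 16 of 44 cases and fell in 2, with DLGAP5 (0.74 ± 0.10), CCNB2 (0.61 ± 0.09), KIF20A (0.53 ± 0.08) and CCNB1 (0.41 ± 0.08) higher and the phosphatase CDC25A (-0.44 ± 0.13) and AURKB (-0.25 ± 0.09) lower. MKI67 (-0.08 ± 0.08), TOP2A (0.01 ± 0.09) and CDK1 (-0.06 ± 0.10) did not pass. With length and GC trends removed 11 mitotic regulators rose and 4 fell, and their median of 0.14 became 0.07. With 4 degrees of freedom 3 of them rose.

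Genes of G1 control fell in 9 of 29 cases and rose in 6. The E2F factors E2F8 (-0.83 ± 0.13), E2F2 (-0.69 ± 0.14) and E2F1 (-0.59 ± 0.10) and cyclin E1 gene CCNE1 (-0.44 ± 0.13) fell, and the inhibitors CDKN1A (0.82 ± 0.08) and CDKN2B (0.60 ± 0.10), CDK6 (0.46 ± 0.09) and RB1 (0.44 ± 0.12) rose. Also higher were the growth-arrest gene BTG2 (1.22 ± 0.18) and ZMAT3 (0.74 ± 0.13) in the authors' deposited table. Apoptosis genes rose in 11 of 32 cases and fell in 2, and the rises held both survival genes such as BCL2L1 (0.46 ± 0.09) and death genes such as BAK1 (0.45 ± 0.10), BMF (0.69 ± 0.13) and CASP4 (0.66 ± 0.13). Tubulin genes rose in 8 of 19 cases, TUBA4A (1.15 ± 0.10), TUBA1A (0.95 ± 0.08) and TUBB4A (0.94 ± 0.16) most, and TUBG2 (-0.95 ± 0.12) and TUBE1 (-0.62 ± 0.16), which act at centrosomes, fell. In bulk RNA, a change in the share of cells in a phase and a change in RNA per cell cannot be told apart.

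**Figure D4:**
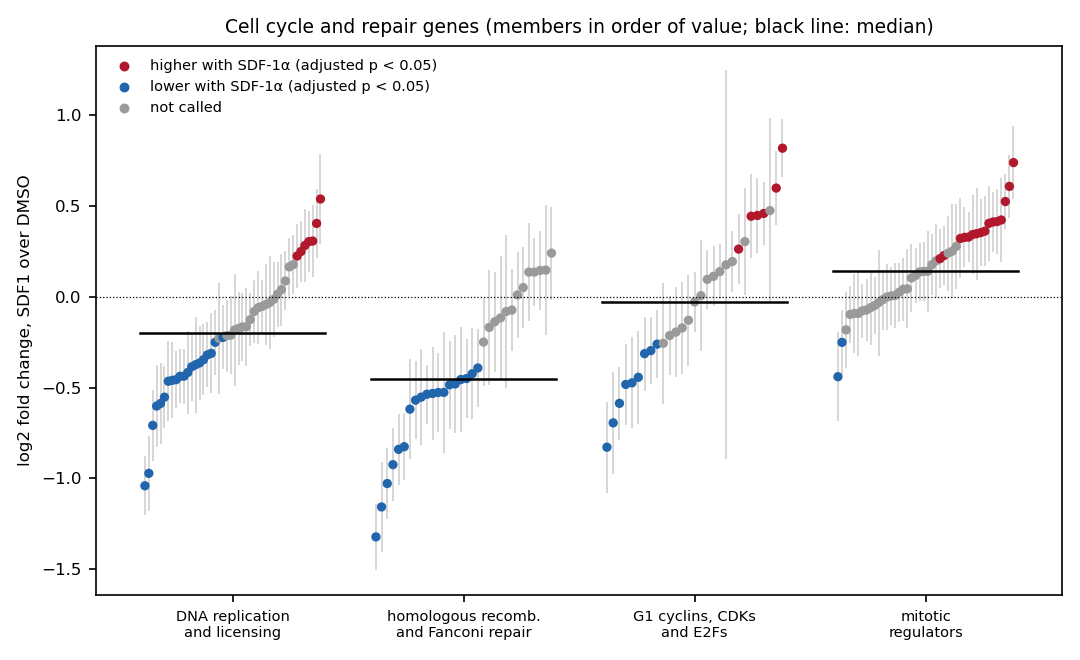
Log2 fold changes of SDF1 over DMSO (vertical axis) for each member of 4 lists, in order of value, with grey lines for 95% intervals and a black line at the median of the list. Red points are higher, blue points lower and grey points not called, and no gene of homologous recombination and Fanconi repair is called higher.

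In the authors' deposited table all 77 ribosomal protein genes rose, between 0.26 (RPL18, ± 0.09) and 0.78 (RPS3A, ± 0.11), with a median of 0.48. These are short transcripts, and the shortest transcripts were higher in general, as described below. With length and GC trends removed 45 of the 77 stayed higher and the median was 0.28, and with 4 degrees of freedom 16 were higher. Of 45 translation factors 25 rose, with EEF1A1 at 0.66 ± 0.07, EIF4EBP2, a brake on initiation, at 0.68 ± 0.08 and PABPC1 at 0.48 ± 0.06, and EEF1D alone fell, by 0.31 ± 0.08. Ribosome biogenesis did not follow: 14 of 37 fell and 4 rose, with the RNA polymerase I factor TAF1C (-1.52 ± 0.09), NOP2 (-0.74 ± 0.10), NOP56 (-0.38 ± 0.07) and NOC2L (-0.59 ± 0.09) lower. Aminoacyl-tRNA synthetases were mixed, with 5 of 20 higher, such as RARS1 (0.30 ± 0.08), and 3 lower, such as VARS1 (-0.54 ± 0.10).

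Subunits of the respiratory chain were higher in 26 of 38 cases for complex I and in 33 of 39 for complexes II to V, where 1 fell. NDUFA1 (0.63 ± 0.12), NDUFS5 (0.55 ± 0.10), COX6C (0.74 ± 0.11) and ATP5MG (0.58 ± 0.09) rose, and the cytochrome c1 gene CYC1 fell by 0.27 ± 0.10. These counts depended on the length and GC trends: with them removed 8 complex I genes were higher and 1 lower, and 16 of complexes II to V higher and 3 lower. By the same rule 2731 of the 17738 genes with a known length and GC content were higher and 2887 lower. The complex I median was 0.30, and 0.11 with the trends removed. With 4 degrees of freedom no complex I gene passed and 2 of complexes II to V did. Proteasome subunits, 24 of 36 higher and none lower (PSMD1 0.53 ± 0.07, PSMA4 0.48 ± 0.08), were likewise 13 higher with the trends removed and 1 with 4 degrees of freedom. Citric acid cycle genes rose in 13 of 25 cases, including the isocitrate dehydrogenases IDH1 (0.69 ± 0.08) and IDH2 (0.60 ± 0.09), whereas citrate synthase CS stood at -0.06 ± 0.08 and pyruvate carboxylase PC fell by 0.32 ± 0.13.

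A list of SR proteins with their kinases, related cyclins and other splicing genes fell in most cases, and the core splicing machinery gave more rises than falls. Of the 43 genes of the first list, 27 fell and 3 rose, with a median of -0.44 in the authors' deposited table and 16 falls with 4 degrees of freedom. Of the 6 CLK and cyclin L genes 5 fell, namely CCNL2 (-1.59 ± 0.07), CLK1 (-1.35 ± 0.13), CLK4 (-1.24 ± 0.19), CLK2 (-1.15 ± 0.12) and CCNL1 (-1.14 ± 0.09). CLK kinases phosphorylate SR proteins and so set their activity. RBM6 (-1.06 ± 0.08), RBM5 (-0.92 ± 0.08), LUC7L (-1.03 ± 0.09), LUC7L3 (-0.92 ± 0.08) and SRSF11 (-0.85 ± 0.09) fell as well, whereas SRSF1 (0.04 ± 0.09) and TRA2B (-0.0039 ± 0.073) did not pass and SRSF9 rose by 0.47 ± 0.09. Of 53 hnRNP and core spliceosome genes 19 rose and 6 fell, and 6 of the 7 Sm-type core proteins rose, SNRPD2 at 0.47 ± 0.11 foremost. PTBP2, a splicing repressor best known from neurons, fell by 1.04 ± 0.13. Among 26 CELF, RBFOX, MBNL and related regulators 4 rose, with MBNL2 (0.60 ± 0.12) and QKI (0.47 ± 0.10) first, and 3 fell, with CELF1 at -0.54 ± 0.10 beside CELF6. Both of these shares were below those of all genes. Histone methyltransferases and demethylases fell in 16 of 40 cases and rose in 4. KMT2B (-0.91 ± 0.09), DOT1L (-0.79 ± 0.09), NSD2 (-0.45 ± 0.07) and EZH2 (-0.50 ± 0.08) fell, and the demethylases KDM1A (0.50 ± 0.11) and KDM1B (0.56 ± 0.13) rose.

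Lysosomal genes gave more falls than rises, and autophagy genes more rises than falls. Of 55 lysosomal genes 23 fell and 11 rose in the authors' deposited table. Hydrolases fell, such as IDUA (-1.68 ± 0.14), CTSD (-0.86 ± 0.11), NAGLU (-0.77 ± 0.09), SGSH (-0.83 ± 0.11) and CTSL (-0.61 ± 0.07). Of the 15 genes of the proton pump and its accessory proteins, 7 rose and 3 fell, with a median of 0.11. In the V1 sector of the pump 5 of 8 rose, with ATP6V1D at 0.51 ± 0.10 and ATP6V1B2 at 0.42 ± 0.08, and none fell. Of 38 autophagy genes 21 rose and 5 fell. The membrane-bound GABARAPL1 (0.82 ± 0.11), GABARAPL2 (0.70 ± 0.10) and MAP1LC3B (0.66 ± 0.09) and the cargo receptors OPTN (0.74 ± 0.08), NBR1 (0.64 ± 0.09) and TAX1BP1 (0.63 ± 0.09) rose, whereas SQSTM1 stood at 0.01 ± 0.08 and ATG16L2 fell by 1.74 ± 0.12. Clock genes gave 4 of 20 higher, such as TEF (0.63 ± 0.12) and ARNTL2 (0.53 ± 0.12), and 3 lower, such as NPAS2 (-0.39 ± 0.11), shares near those of all genes.

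A division by gene symbol, over all 93 families of at least 20 tested genes that share the letters before the first digit, showed further groups. Zinc finger genes named ZNF fell in 170 of 513 cases and rose in 17, a lower share of 33.1% against 17.5% of all genes, and ZBTB genes in 13 of 42. ZNF331 was lowest among precise ZNF genes in the authors' deposited table (-1.74 ± 0.11), and ZNF185, a LIM protein of the actin cytoskeleton despite its name, was the largest rise (1.03 ± 0.13). Golgins named GOLGA had the lowest median, -1.09, with 14 of 32 lower, GOLGA8B (-1.75 ± 0.11) and GOLGA8A (-1.79 ± 0.31) first, but most are near-identical copies. GOLGA5 (0.54 ± 0.10) and GOLGA4 (0.44 ± 0.11), golgins of the Golgi rim and tips, rose. Semaphorins, secreted or membrane guidance cues, fell in 9 of 20 cases and none rose, SEMA3B at -1.17 ± 0.12 and SEMA3E at -1.57 ± 0.54. Centrosomal CEP genes fell in 16 of 38 cases, CEP95 (-0.93 ± 0.11) and CEP83 (-0.83 ± 0.16) first, and rose in 3.

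Some families of membrane traffic and ubiquitin transfer were higher and others were not. RAB genes, the GTPases of vesicle traffic and genes that share their letters, rose in 28 of 72 cases and fell in 7, with RAB31 at 1.05 ± 0.08 in the authors' deposited table. Sorting nexins rose in 15 of 30 cases, SNX29 (0.89 ± 0.13) and SNX12 (0.63 ± 0.09) first, and ubiquitin-conjugating UBE genes in 24 of 42, UBE2F (0.71 ± 0.12) first, with 2 lower in each. VPS genes of vacuolar sorting had 10 of 35 higher and 6 lower, TBC genes 8 of 44 higher and 10 lower, FBXO genes 6 of 35 higher and 8 lower, and TRIM genes 9 of 67 higher and 15 lower. The TBC (18.2% and 22.7%), FBXO (17.1% and 22.9%) and TRIM (13.4% and 22.4%) shares were not far from the 17.2% and 17.5% of all genes. Mitochondrial ribosomal proteins rose in 18 of 49 cases for MRPL and 12 of 29 for MRPS, though their medians of 0.22 and 0.25 were 0.08 and 0.04 with length and GC trends removed. Solute carriers fell in 80 of 358 cases and rose in 25.

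Changed genes differed in base composition and length. Genes were split into 10 bins by the GC content of their longest GENCODE 29 transcript. In the bin richest in GC, with a median of 64.6%, 6.09% were higher and 32.8% lower, and the median log2 fold change was -0.31. In the fourth bin, with a median of 45.2%, 24.5% were higher. By length, the shortest bin, with a median of 968 nucleotides, had 23.7% higher and 6.37% lower. In the longest bin, with a median of 9212 nucleotides, 16.1% were higher and 21.0% lower. An annotated retained-intron transcript was present for 65.0% of lower genes, 53.7% of higher genes and 50.4% of all genes tested. Chromosome 19, which is rich in GC and in ZNF genes, had 24.3% of its 1310 genes lower and 9.24% higher, and chromosome X had 22.4% of its 754 genes higher and 11.4% lower. RNA integrity is not given in the sources used here, and the part of length and base composition in single genes was not tested beyond the removal of both trends.

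**Figure D5:**
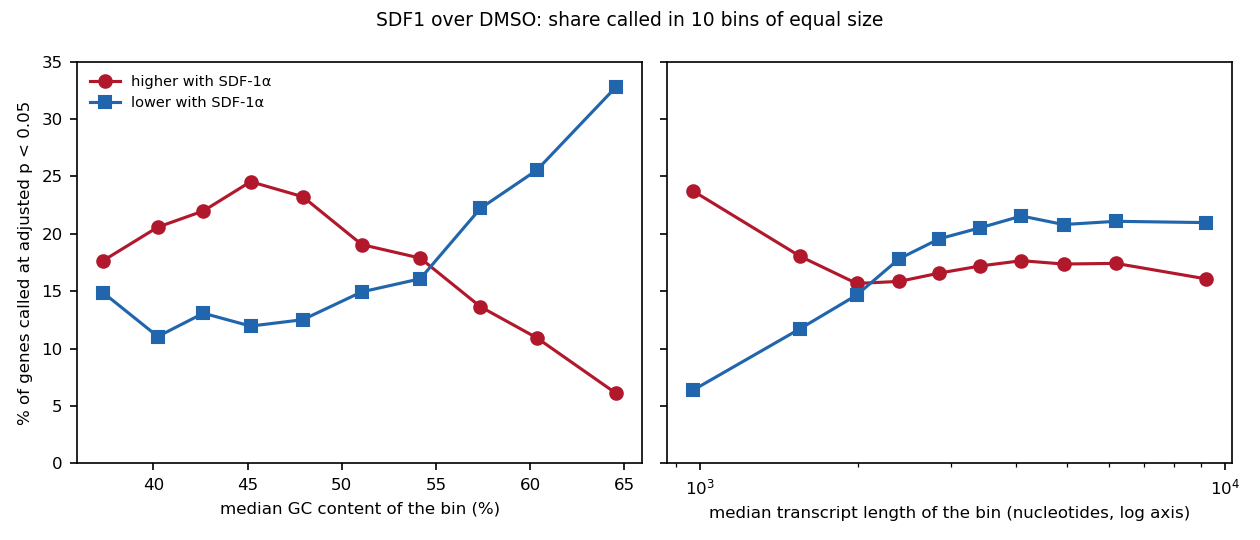
The percentage of genes higher (red circles) and lower (blue squares) with SDF-1α is plotted for 10 bins of equal size by GC content in percent (left) and by transcript length in nucleotides on a log axis (right). The share of lower genes climbs to 32.8% in the bin richest in GC, and the share of higher genes is largest, 23.7%, in the shortest bin by length.

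Markers of other cell types were read for their differences, since the table holds no levels. Of 10 chondrocyte markers with a value in the authors' deposited table, 3 fell and none rose, COL9A1 and CNMD had no value, and COL2A1 (0.58 ± 2.68) and COL9A3 (-1.04 ± 0.92) were imprecise, so these data cannot show that the defining cartilage collagens were present. SOX9 and ACAN were measured precisely. Of 10 fibroblast markers 3 rose, VIM (0.41 ± 0.07) with DCN and LUM, and 3 fell, among them COL1A1 (-0.55 ± 0.09) and FAP (-1.15 ± 0.18). Of 8 smooth muscle markers 6 rose and SMTN fell. KRT18 (0.34 ± 0.10) alone rose of 10 epithelial markers and ALPL (1.31 ± 0.34) alone of 8 bone markers. No endothelial marker of 9 and no leukocyte marker of 10 passed. The part of other cells in these values was not tested.

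For reference, 7 of the genes named above are set beside the other comparisons of the authors' deposited table, which use the same 3 SDF1 cultures, so that their values are not independent of those given here. SDF1_AS4 is SDF-1α with astragaloside IV, and SDF1_SKHS is SDF-1α with the herbal formula SKHS. CNN1 was at 1.50 ± 0.13 in SDF1 over DMSO, -0.03 ± 0.11 in SDF1_AS4 over SDF1 and -0.66 ± 0.11 in SDF1_SKHS over SDF1. NEDD9 was at 1.37 ± 0.12, -0.22 ± 0.13 and -0.55 ± 0.10 in the same order. For ATF3 the values were 1.43 ± 0.29, -0.05 ± 0.24 and 2.29 ± 0.15, and for CTH 1.29 ± 0.12, -0.04 ± 0.10 and 1.00 ± 0.08. Among genes that fell, CELF6 stood at -2.51 ± 0.13, 0.26 ± 0.16 and 1.24 ± 0.13, WDR90 at -2.02 ± 0.11, 0.28 ± 0.14 and -0.89 ± 0.17, and XAF1 at -2.48 ± 0.28, -0.10 ± 0.36 and 0.63 ± 0.31. None of the 7 was called in SDF1_AS4 over SDF1, where 0.358% of genes were, and all but XAF1 were called in SDF1_SKHS over SDF1, where 32.4% were. These 7 were chosen after their values were seen.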

How the data were processed

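RNA was sequenced from 12 cultures in 4 groups of 3; the comparison rests on the 3 SDF1 and 3 DMSO cultures. The submitters' processing notes list, in no order, the build GRCh38.p13, DESeq2 1.4.5, RSEM 1.2.12 and Bowtie2 2.2.5. The deposited table holds the authors' log2 fold changes, and whether these were shrunken is not given in the sources used here. The p-values and q-values in it are those the authors deposited, from DESeq2 per the file headers. The q-value equals a Benjamini-Hochberg adjustment of the p-value over the 18162 genes (largest difference 1.5e-15). Fold changes were read as SDF1 over DMSO. This direction was checked on genes that lack a value in some comparisons: all 152 genes with a value in SDF1 over DMSO alone were negative there, and all 553 values in the other comparisons of genes without one in SDF1 over DMSO were positive.

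An implied standard error was obtained by dividing the absolute log2 fold change by the standard normal quantile of the p-value, assuming a Wald test. Its median was 0.152. Intervals of 95% use it, and cover no more than the authors' estimate of spread. Values per culture were not analysed here, so depth is unknown. The members and the 74 gene lists (67 of pathways and 7 of cell type markers) were chosen with earlier results of these data known, and subgroups within lists were named after their values were seen. The genes named are the 15 largest precise changes each way, members of the lists, the called family members of largest size and genes with a printed promoter. Lists are described by counts and medians beside those of all genes, with no set test. Some genes and lists are not reported here. Length, GC content and coordinates came from GENCODE 29, which held 97.7% of the symbols, and trends with both were removed by a spline of 5 degrees of freedom each. Promoter windows came from RefSeq (GRCh38.p14) for 77.5% of the symbols, the first listed start being used. Only the adjustment and calling of p-values were tested on simulated data, with normal noise scaled by the implied standard errors. That run did not cover the removal of trends, the promoter search or the t distribution. Alternatives were an adjusted p of 0.01, a limit of 0.5 on the implied standard error, a t distribution with 4 degrees of freedom, centring on the median and removal of the trends. Python 3.11.15 was used with matplotlib 3.10.9, patsy 1.0.2, statsmodels 0.14.6, pandas 2.3.3, scipy 1.17.1 and numpy 2.4.6.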

Additional observations from a re-analysis of the deposited data

How the results depend on the processing

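The counts of changed genes (6301 in all) stayed within 1.5 times at an adjusted p of 0.01, with a limit of 0.5 on the implied standard error, centred on the median and with length and GC trends removed. Under a t reference distribution (4 degrees of freedom) 1092 genes passed, 339 higher and 753 lower. Of changes of at least 2-fold, 597 were left when genes whose implied standard error exceeded 0.3 were dropped, 61 higher and 536 lower, against 993 in all. Of the list medians, 10 moved by more than the median implied standard error (0.152) when the trends were removed. Among them were those of ribosomal proteins (0.28), complex I (0.11), complexes II to V (0.15) and the proteasome (0.11). Those of the basement membrane (-0.51) and of fibril collagens and their processing (-0.26) also moved. With imprecise genes dropped 4 moved, of which the chemokine's own axis (0.43, with -0.05 over all 9 members) and the endothelial markers (0.18, with -0.08) also changed sign. Of the family medians, ZDHHC (-0.17) stood at 0.0081 and CCL (0.29) at -0.21 with the trends removed; the cause was not tested beyond the removal itself. Of the 30 genes named for the largest change among those with an implied standard error up to 0.3, ATF3 and FLG lost the call with 4 degrees of freedom. Leaving out each culture in turn was not run, since the table holds no value per culture. No paired analysis was possible because the table holds comparisons and carries no replicate numbers. Depth and expression levels are unknown, so what they limit could not be assessed.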
